A study of Mus musculus with 4 samples.

Results

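The collagen genes were examined in brown adipose tissue (BAT) of Tg mice in which the eIF2α kinase PERK can be switched on by a drug. Members were the array probes, other than controls, whose accession maps in RefSeq to a mouse symbol written as Col, digits, a and digits. Of 44 such symbols, 42 had a matched probe (61 probes in all), among 20145 named genes and 55681 probes on the array, and Col6a3 and Col12a1 were not analysed here. Collagens are the triple-helical proteins of the extracellular matrix. The fibrillar types, above all type I, III and V, form the cables of connective tissue and are made mainly by fibroblasts and their progenitors, whereas type IV forms the sheet-like network of the basement membrane that wraps each adipocyte and capillary. All of them fold in the endoplasmic reticulum, where PERK acts as a sensor of misfolded protein, and need dedicated hydroxylases and chaperones there.

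All 4 samples were BAT of male maP2-Fv2E-PERK Tg mice, which carry a drug-dimerized form of PERK behind a 5.4 kb promoter fragment of aP2 (Fabp4) and were established in the C57/BL6N strain. Both groups thus share the transgene, and they differed in the intraperitoneal injection, which was the dimerizer AP20187 (AP) in 2 and vehicle in 2 (water with 1.75% Tween-20, 4% ethanol and 10% PEG-400). The tissue was taken 12 h later at 8 weeks of age. The dose of AP is given as 1 ng/g by the sample labels and as 0.05 mg/kg elsewhere in the study's text. The aP2 promoter is an adipocyte promoter that is also active in macrophages, and no arrays of AP-treated wild-type mice were analysed here, so effects of the drug and of PERK cannot be told apart. Each RNA was hybridized to its own one-color array on 1 slide. Values below are on a log2 scale on which 0 is the array's own 75th percentile of processed signal, and they are given in the order vehicle 1, vehicle 2, AP 1 and AP 2, and levels of different probes are not compared. The labels do not state that the samples of a group came from separate mice, and the p values measure only the spread between these samples.

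Trib3 and Ddit3, induced downstream of PERK, were higher on both AP arrays. Trib3 was 2.78 and 2.33 with vehicle and 6.26 and 8.01 with AP, and Ddit3 was 2.18 and 1.86 with vehicle and 3.03 and 4.22 with AP. All 7 brown adipocyte markers were well above background on all 4 arrays. The vehicle arrays stood apart from each other. The summed linear signal of 8 skeletal muscle genes (in units of the array's 75th percentile) was 32.0 and 571.8 on the vehicle arrays and 381.5 and 199.2 on the AP arrays. The sum of 7 fibroblast markers was 41.1 and 65.8 against 47.1 and 40.6. Most of the higher sum on vehicle 2 came from Cd34, at 3.56 and 5.07 against 3.78 and 3.83 on the log2 scale. Ly6a was 3.67 and 3.81 against 4.08 and 3.27, and Pi16 was 3.62 and 3.12 against 3.47 and 3.57. Vehicle 2 was the highest array for 4 of the 7 markers. The sum of 5 macrophage markers was 30.2 and 35.5 against 21.3 and 23.2. Without Itgam, the bright gene that set the groups apart, the 4 others summed to 11.7 and 21.4 against 14.1 and 12.5. That of 5 white adipocyte markers was 47.0 and 54.5 against 33.4 and 37.5, with Lep (difference -1.38) and Retn (difference -0.38) lower on both AP arrays and Hoxc8 and Hoxc9 not well above background on any array. The sum of 6 endothelial markers was 37.2 and 42.8 against 39.8 and 36.3, and that of 7 mural cell markers was 68.6 and 68.0 against 66.3 and 61.1. Cd163 of the macrophage list and Acan, Matn1 and Hapln1 of 5 chondrocyte markers were not well above background on any array. A sum of linear signals is always above 0, so the sum of a list does not show that its cell type was present. In bulk tissue, fewer cells of a type and less RNA per cell cannot be told apart. The part of these markers in the collagen values was not tested.

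**Figure D1:**
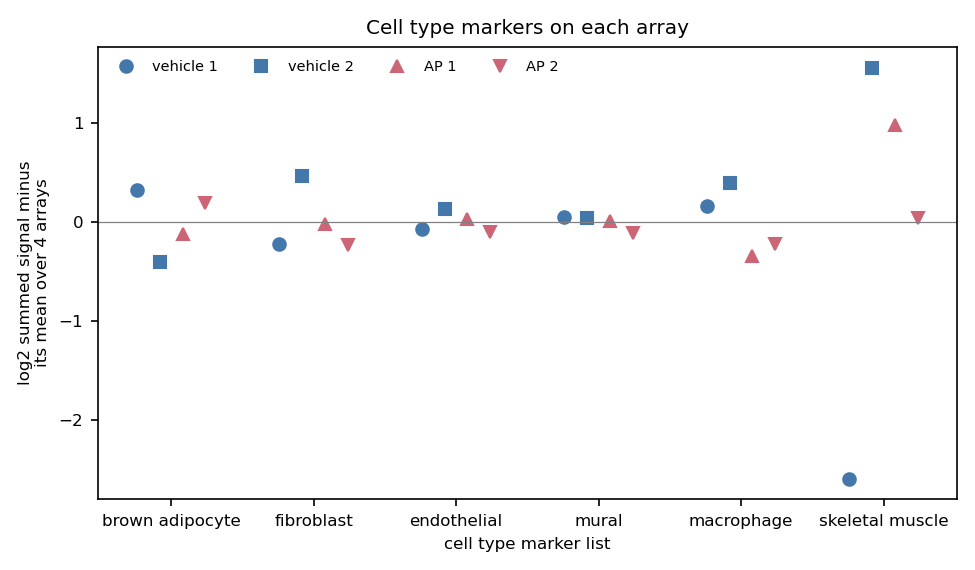
Summed signal of 6 cell type marker lists on each array, as log2 minus the mean of the list over the 4 arrays, with vehicle in blue and AP in red. Muscle markers set vehicle 1 (sum 32.0) far below vehicle 2 (sum 571.8). The fibroblast sum was highest on vehicle 2, mostly through Cd34 of that list. The macrophage sum was lower on both AP arrays, but the groups overlapped without Itgam of that list.

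The promoters of the 3 fibrillar genes with the lowest differences, AP minus vehicle, are shown as background. Their motifs were not related to the differences. RefSeq windows (GRCm38.p6, 250 bases before to 50 bases after the transcript start) were found for 20 of the 23 collagens measured, and Col1a1, Col5a2 and Col14a1 had no entry. The 250 bases before the start are printed 5′ to 3′ on the gene's own strand, with capitals, on either strand, for the CCAAT box, for the GC box (written GGGCGG) and for the TATA box (written TATAAA). Col1a2 lies at chr6:4505368-4505617 (plus strand), Col3a1 at chr1:45311288-45311537 (plus strand) and Col5a3 at chr9:20815068-20815317 (minus strand).

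Col1a2: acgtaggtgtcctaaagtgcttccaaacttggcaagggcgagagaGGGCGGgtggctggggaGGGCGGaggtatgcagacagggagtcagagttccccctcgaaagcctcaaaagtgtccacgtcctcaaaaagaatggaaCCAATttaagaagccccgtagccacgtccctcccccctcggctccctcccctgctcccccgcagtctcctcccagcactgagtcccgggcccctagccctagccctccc

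Col3a1: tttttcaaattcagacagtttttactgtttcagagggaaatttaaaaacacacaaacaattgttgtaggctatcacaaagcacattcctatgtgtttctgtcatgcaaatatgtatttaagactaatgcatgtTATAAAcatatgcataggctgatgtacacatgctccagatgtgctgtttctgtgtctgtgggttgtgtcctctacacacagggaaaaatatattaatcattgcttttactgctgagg

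Col5a3: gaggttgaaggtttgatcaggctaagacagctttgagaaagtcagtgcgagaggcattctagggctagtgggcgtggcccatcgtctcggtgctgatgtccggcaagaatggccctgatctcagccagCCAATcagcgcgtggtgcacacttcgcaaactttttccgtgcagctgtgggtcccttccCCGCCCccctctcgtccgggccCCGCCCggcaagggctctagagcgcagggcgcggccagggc

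The CCAAT box, a site of NF-Y, began 109 bases before the start in Col1a2 and 122 bases before it in Col5a3, and the Col3a1 window held a TATAAA 117 bases before the start. A gene was counted if any of its windows held the motif. Of the 20 genes, 8 had CCAAT and 16 had GGGCGG, which Sp1 binds. Counted by window and not by gene, 37.4% and 35.7% of all 32851 windows in the table held them. TATAAA was in 2 of 20 genes, both fibrillar, against 13.6% of all windows. The composite element TGATGNAA is a form bound by ATF4, the transcription factor made when eIF2α is phosphorylated. It was in the windows of 0 of 20 collagen genes and in 3.97% of all windows. These letters were searched on both strands, and their absence says only that they are not in these windows.

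The main type IV chains are encoded head to head from shared sequence, which is shown as background. Its part in the signals of these genes was not tested. The stretch chr8:11312801-11312830 (GRCm38.p6, plus strand) has in capitals the 22 bases from the Col4a2 start, which is read to the right, to the Col4a1 start, which is read to the left.

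Col4a2 and Col4a1: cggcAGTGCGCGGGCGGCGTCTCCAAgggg

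Of the 42 collagens, 23 were measured, meaning that their probe was well above background in both arrays of at least 1 group, and all 23 were so on all 4 arrays. Of the 19 others, 16 were dim on every array, including the cartilage collagens Col2a1 and Col11a1. Most of the 23 were lower with AP. The log2 difference, AP minus vehicle, was below 0 for 20 of 23 (87.0%), with a median of -0.31, whereas 48.6% of the 12792 named genes measured were lower, with a median of 0.01. Both AP arrays lay below both vehicle arrays for 8 collagens, or 34.8%, beside 17.3% of all named genes and 20.4% of all 24975 probes measured. Both AP arrays lay above for 1 collagen, beside 20.1% of named genes and 18.0% of probes. No collagen passed the test. With limma and Benjamini-Hochberg adjustment over all 24975 probes, 0% were called at the 0.05 level, and the lowest adjusted p rounded to 0.80. Without adjustment, 0 of 23 collagens had a limma p under 0.05 by their brightest probe, where 2.26% of named genes did with lower and 3.78% with higher signal under AP, and 1515 probes did in all. Of all 28 collagen probes measured 1 did, the dimmer probe of Col14a1. With 2 against 2 arrays the exact permutation test of 1 gene cannot go below p = 0.333.

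**Figure D2:**
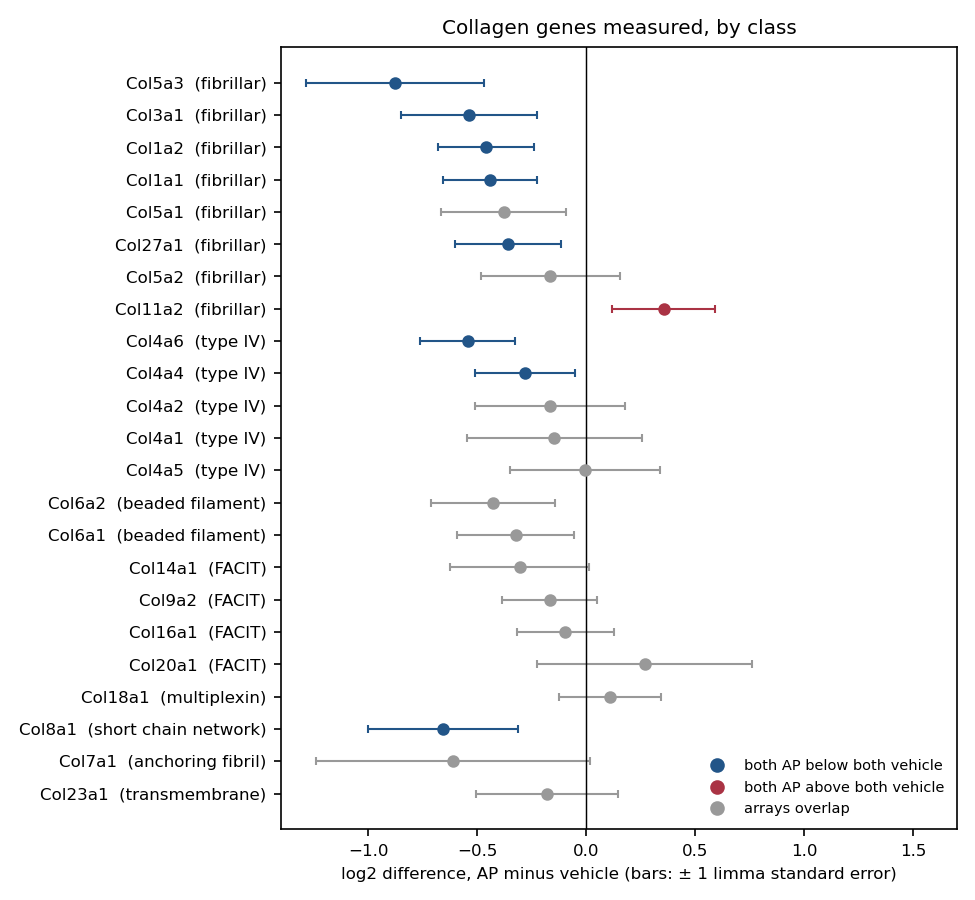
Log2 difference, AP minus vehicle, of the 23 collagens measured, grouped by class, with bars of 1 limma standard error on each side. Blue points are the 8 genes with both AP arrays below both vehicle arrays, the red point is Col11a2 with both above, and grey points overlap.

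The direction rested in part on which vehicle array was the reference. Vehicle 2 was the highest array for 14 of 23 collagens (60.9%, beside 23.8% of all named genes), and AP 2 was the lowest for 13 of 23 (56.5%, beside 21.1%). The median collagen difference was -0.45 when vehicle 1 was left out and -0.08 when vehicle 2 was left out. Without vehicle 1, 20 of 23 collagens were lower, beside 46.7% of all probes measured. Without vehicle 2, 15 of 23 were lower, beside 55.9% of all probes measured.

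Type I collagen, the main fibre protein, did not show this dependence. Col1a1 (probe A_55_P2118520), one of its chains, was 3.61 and 3.64 with vehicle and 3.31 and 3.05 with AP. Its log2 difference was -0.44 (SE 0.22), or 1.36-fold lower, with an adjusted p of 0.80 (limma). Col1a2 (probe A_51_P182303), the other chain, was 5.16 and 5.13 with vehicle and 4.83 and 4.53 with AP, a difference of -0.46 (SE 0.22), or 1.38-fold lower, and also an adjusted p of 0.80 (limma). For both genes the vehicle arrays lay close together and both AP arrays below them, with AP 2 the lower. As deviations from each gene's own mean, the chains differed by at most 0.04 on any array. With each array left out in turn, the difference stayed between -0.57 and -0.31 for Col1a1 and between -0.61 and -0.31 for Col1a2.

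Type III and type V collagen, which assemble with type I into mixed fibrils, were lower mainly against vehicle 2. Col5a3 (probe A_51_P241995), a minor type V chain, had the lowest difference of the 23 collagens, at 3.11 and 4.10 with vehicle and 2.95 and 2.51 with AP. The difference was -0.88 (SE 0.41), or 1.84-fold lower, with an adjusted p of 0.80 (limma), and without vehicle 2 it was -0.38. Col3a1 (probe A_51_P515605) was 4.38 and 4.94 with vehicle and 4.36 and 3.89 with AP, a difference of -0.54 (SE 0.31). Its groups were apart by only 0.02, between vehicle 1 and AP 1, and without vehicle 2 the difference was -0.26. Col5a1, a main chain of type V, which starts fibril assembly, was 0.58 and 1.17 against 0.60 and 0.39, a difference of -0.38 (SE 0.29), and its groups overlapped. Col5a2, its partner chain, was -2.64 and -2.15 against -2.85 and -2.28, a difference of -0.17 (SE 0.32) that was within the spread of either group.

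The other fibrillar genes were Col27a1 and Col11a2, better known from cartilage. Col27a1 was 0.42 and 0.01 with vehicle and -0.17 and -0.12 with AP, a difference of -0.36 (SE 0.24) with the groups apart. Col11a2 was -3.26 and -3.55 with vehicle and -2.92 and -3.19 with AP, a difference of 0.36 (SE 0.24), and was the 1 collagen with both AP arrays above both vehicle arrays. In all, 7 of 8 fibrillar genes were lower (87.5%, beside 48.6% of all named genes), and their median was -0.41. For 5 of the 8 both AP arrays lay below both vehicle arrays, beside 17.3% of all named genes. Of these 5, Col27a1 shrank to -0.15 without vehicle 1.

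The type IV genes were lower by less. Col4a1 (probe A_51_P124254) and Col4a2 (probe A_51_P491350), the chains of the common basement membrane network, were led by the gap between the vehicle arrays. Col4a1 was 3.24 and 4.26 with vehicle and 3.74 and 3.47 with AP, a difference of -0.15 (SE 0.40). Col4a2 was 3.70 and 4.49 with vehicle and 4.09 and 3.77 with AP, a difference of -0.17 (SE 0.35). For both genes vehicle 1 was the lowest array and vehicle 2 the highest, with AP between them, and their deviations differed by at most 0.12 on any array. From low to high the arrays ran vehicle 1, AP 2, AP 1 and vehicle 2 for both genes, which is also the order of the summed skeletal muscle markers, whose part in these values was not tested. Without vehicle 2 the differences were 0.36 for Col4a1 and 0.23 for Col4a2, the opposite direction, and without vehicle 1 they were -0.65 and -0.56.

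The minor type IV chains, which have narrower tissue distributions, did not share this pattern. Col4a6 was -1.44 and -1.30 with vehicle and -1.80 and -2.03 with AP, a difference of -0.54 (SE 0.22) with both AP arrays below, which was -0.14 after normexp background correction. A second Col4a6 probe, which was not well above background on any array, differed by 1.04 in the other direction. Col4a4 was -2.77 and -3.12 against -3.19 and -3.25, a difference of -0.28 (SE 0.23) with the groups apart. That difference was 0.067 after normexp background correction. Col4a5, whose chain pairs with that of Col4a6, was -2.21 and -2.13 against -2.60 and -1.75, a difference of -0.01 (SE 0.34), and the deviations of this pair differed by up to 0.81 on 1 array. All 5 type IV genes measured were thus below 0, where 48.6% of all named genes were, and their median was -0.17. After normexp background correction Col4a4 and Col4a5 were above 0. For 2 of the 5 both AP arrays lay below both vehicle arrays, beside 17.3% of all named genes.

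**Figure D3:**
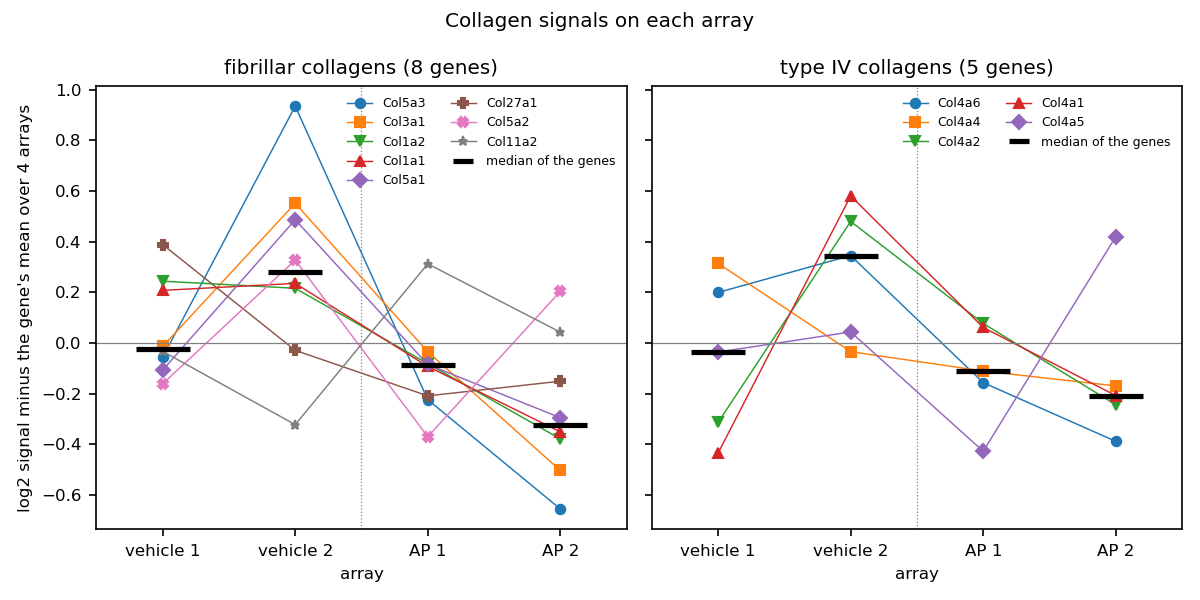
Log2 signal of each fibrillar gene (left) and type IV gene (right) on the 4 arrays, minus the mean of the gene, with black bars for the median of the class and lines that only join the points of a gene. Col1a1 and Col1a2 sit together at every array, and Col4a1 and Col4a2 swing from the lowest values on vehicle 1 to the highest on vehicle 2.

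The fibrillar median lay 0.24 below the type IV median (difference -0.24), but this gap did not hold under other summaries. It was -0.13 between the class means and -0.02 when the medians were taken within each array first. On those per-array medians the fibrillar genes were at -0.02 and 0.28 with vehicle and at -0.09 and -0.32 with AP, and the type IV genes at -0.04 and 0.35 with vehicle and at -0.11 and -0.21 with AP. The gap was 0.11, with the type IV genes the lower, when vehicle 1 was left out, and -0.35 when vehicle 2 was left out. It was -0.06 without AP 2. A difference between the classes was thus not detectable beyond the spread between these arrays.

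Among the other classes, the type VI chains that form beaded filaments around adipocytes were lower with overlapping groups. Col6a1 was 3.69 and 4.18 with vehicle and 3.73 and 3.49 with AP, a difference of -0.32 (SE 0.27). Col6a2 was 1.66 and 2.09 against 1.67 and 1.23, a difference of -0.43 (SE 0.28), and their deviations differed by at most 0.15. Col8a1, a short chain collagen of vessel walls, was -2.44 and -2.28 against -3.43 and -2.60, a difference of -0.66 (SE 0.34) with the groups apart that shrank to -0.24 without AP 1 and to -0.032 after normexp background correction. Col7a1, of anchoring fibrils, was -0.55 and -2.34 against -1.96 and -2.14, and its difference of -0.61 (SE 0.63) came from vehicle 1 alone, as it was 0.29 without that array. Col18a1, the basement membrane collagen that yields endostatin, was 1.80 and 2.11 against 1.96 and 2.17, a difference of 0.11 (SE 0.23), and its second probe gave -0.09. The fibril-associated Col14a1 was -0.37 and 0.36 against -0.20 and -0.43, a difference of -0.31 (SE 0.32). Its dimmer probe (A_55_P2159522) was -2.59 and -2.43 against -3.00 and -3.26, a difference of -0.61 (SE 0.22) with the groups apart and an adjusted p of 0.80 (limma). Col16a1 was -0.01 and 0.14 against 0.11 and -0.17, a difference of -0.10 (SE 0.22). Col20a1, with the next highest difference after Col11a2, was -2.26 and -2.45 against -1.41 and -2.76, a difference of 0.27 (SE 0.49) that AP 1 carried. The transmembrane Col23a1 was -2.02 and -1.89 against -2.52 and -1.74, a difference of -0.18 (SE 0.33), and Col9a2 differed by -0.17, both with overlapping groups.

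The genes that build collagen were read from 6 lists, and no gene of them passed the adjusted threshold either. In the list of collagen synthesis in the endoplasmic reticulum, 12 of 16 genes measured were lower, with a median of -0.13 that was -0.23 against vehicle 2 alone and -0.035 against vehicle 1 alone. Serpinh1 (HSP47), the chaperone dedicated to procollagen, was 5.23 and 5.17 with vehicle and 4.07 and 4.28 with AP. Its log2 difference was -1.03 (SE 0.21), or 2.04-fold lower, with an adjusted p of 0.80 (limma), and it stayed between -1.13 and -0.92 with each array left out. P4ha2, a catalytic subunit of prolyl 4-hydroxylase, was 1.72 and 0.87 against 0.30 and 0.16, a difference of -1.07 (SE 0.35) that ranged from -1.49 without vehicle 2 to -0.64 without vehicle 1. Its sister subunit P4ha1 was 0.75 and -0.61 against 1.78 and -0.21, a difference of 0.71 (SE 0.82) with overlapping groups. P3h4, a member of the lysyl hydroxylase complex of the endoplasmic reticulum, was 1.77 and 1.85 against 2.28 and 2.26, a difference of 0.46 (SE 0.20). The value of Serpinh1 lay beyond that of every collagen measured, a gap that was not itself tested, and its vehicle and AP arrays each lay close together.

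Outside the cell, all 10 genes measured for procollagen processing and crosslinking were lower, with a median of -0.32 that was -0.62 against vehicle 2 alone and -0.026 against vehicle 1 alone. Lox, the lysyl oxidase that crosslinks collagen fibres, was -0.60 and -0.77 with vehicle and -1.80 and -1.75 with AP. Its difference was -1.09 (SE 0.21), or 2.13-fold lower, with an adjusted p of 0.80 (limma), and it stayed between -1.18 and -1.004 with each array left out, but it was -0.50 after normexp background correction. The related Loxl1 and Loxl2 differed by -0.04 and -0.26. Pcolce, which enhances cleavage of the procollagen C-terminus, was 4.88 and 6.44 against 4.98 and 4.47, a difference of -0.93 (SE 0.58), and it was -0.15 without vehicle 2.

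**Figure D4:**
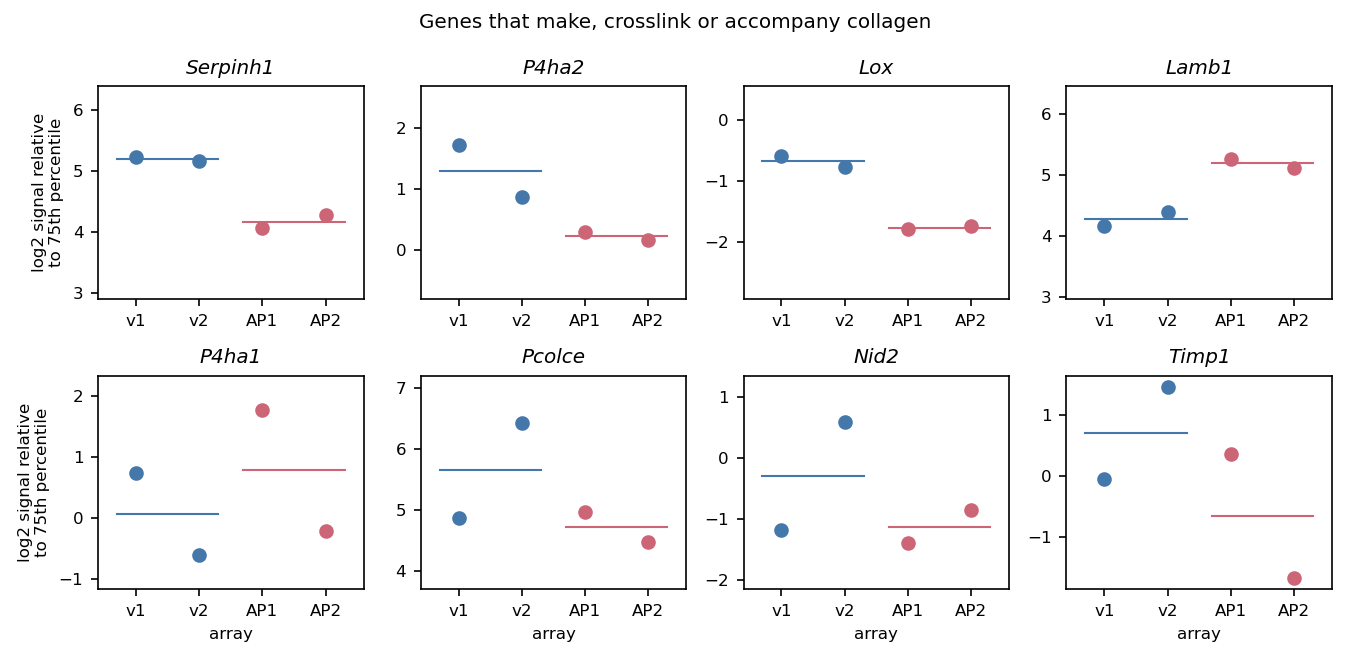
Log2 signal on the scale where 0 is the array's 75th percentile for 8 genes of the collagen lists on vehicle arrays (v1, v2, blue) and AP arrays (AP1, AP2, red), with lines for group means and the same span on every axis. Serpinh1, P4ha2 and Lox lay lower and Lamb1 higher on both AP arrays, whereas P4ha1, Pcolce, Nid2 and Timp1 varied as much within a group.

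Of the 14 basement membrane partners measured, 9 were lower and the median was -0.19, or -0.33 against vehicle 2 alone and 0.017 against vehicle 1 alone. Laminin chains went both ways. Lamb1, a common laminin β chain, was 4.16 and 4.39 with vehicle and 5.26 and 5.11 with AP. Its difference was 0.92 (SE 0.22), with an adjusted p of 0.80 (limma), and it stayed between 0.80 and 1.03 with each array left out. Lamb3, a chain of epithelial laminin, differed by 0.58 with the AP arrays above. Lamb2 differed by -0.37 with the AP arrays below. Lamc3 was 1.11 and 0.38 against -0.40 and 0.43, a difference of -0.73 (SE 0.42). Nid2, a nidogen that links laminin to type IV collagen, was -1.18 and 0.60 against -1.39 and -0.85, a difference of -0.84 (SE 0.65) that was 0.055 without vehicle 2. Serpinh1, P4ha2, Lox and Lamb1 were the 4 of 66 genes measured in the 6 lists (6.06%) with an unadjusted limma p under 0.05, a share like that of all named genes (6.04%).

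The partners of collagen fibrils were lower in 9 of 10 genes measured, with a median of -0.21 that was -0.059 against vehicle 1 alone, and vehicle 2 was the highest array for 9 of 10. Fn1, fibronectin, was 2.22 and 3.43 against 2.41 and 2.06, a difference of -0.59 (SE 0.46) that was 0.015 without vehicle 2. Thbs2, a thrombospondin, was -2.86 and -2.17 against -2.93 and -3.29, a difference of -0.59 (SE 0.32) that was -0.079 after normexp background correction. Postn, periostin, was 2.53 and 1.96 against 2.49 and 2.18, a difference of 0.09 (SE 0.29). Among 10 genes measured for collagen breakdown, 7 were lower, with a median of -0.18 that was -0.094 against vehicle 1 alone. Timp1, an inhibitor of matrix metalloproteinases, was -0.06 and 1.45 against 0.35 and -1.68, a difference of -1.36 (SE 0.86) with overlapping groups, which was -0.35 without AP 2 and -2.37 without AP 1. Ctsk, the collagen-cleaving cathepsin K, was 1.02 and 1.16 against 0.48 and 0.60, a difference of -0.55 (SE 0.21). The metalloproteinases Mmp14 and Mmp2 differed by 0.22 and 0.19 with overlapping groups. Of 6 collagen receptors measured, 3 were higher and 3 lower, with a median of -0.03, or -0.22 against vehicle 2 alone and 0.099 against vehicle 1 alone. Lair1 and Itgb1 differed by -0.29 and -0.27 with the AP arrays below, and Ddr1 and Itga1 differed by 0.30 and 0.03 with overlapping groups.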

How the data were processed

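BAT RNA of 4 samples was labeled with Cy3 and hybridized to SurePrint G3 Mouse 8x60K arrays. The authors extracted the scans with Agilent Feature Extraction (10.7.1.1 in the submitters' processing notes) and deposited background-subtracted spot intensities on a linear scale, not normalized between arrays. A second deposited file holds the authors' processed values on a log2 scale, each probe centred on a value that no source states. It was used as an alternative.

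Each deposited intensity was put on the log2 scale and the array's own 75th percentile was subtracted, leaving out control spots and outlier-flagged spots. Spots of a probe were averaged, and the probe with the highest mean signal stood for a gene. No collagen measured had a spot left out. Accessions were named through RefSeq (GRCm38.p6, names and promoter windows only, as the array design uses mm9). Of 55681 probes, 26582 were named. Probes well above background in both arrays of at least 1 group entered a limma 3.58.1 fit (lmFit, eBayes, in R 4.3.3) with Benjamini-Hochberg adjustment, after the script had been tested on simulated data. Class medians and counts were given no test. The text names every collagen measured and, of each list, the 2 largest rises and 2 largest falls and any gene with an unadjusted limma p under 0.05. One gene that this rule names is not reported here. Lamb2, Lamb3, Loxl1 and Loxl2 were named after their values were seen. The members and gene lists were chosen with earlier results of these data known.

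Between 46.4% and 49.0% of spots were well above background and 0 were saturated. Precision is limited by there being 2 arrays a group. Vehicle arrays were in row 1 and AP arrays in rows 3 and 4 of the slide, so position and treatment cannot be told apart. Vehicle 2 alone was in column 2, with the other arrays in column 1. It was also the brightest, with a 75th percentile of 158.7, beside 118.9 (vehicle 1), 127.6 (AP 1) and 118.5 (AP 2). The part of position and brightness in its values was not tested.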

Additional observations from a re-analysis of the deposited data

How the results depend on the processing

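In all 13 alternatives that refit the probes, 0 probes passed the adjusted threshold, and between 1003 and 2613 probes had an unadjusted p under 0.05 (1515 as reported). A fit with a replicate block also called 0 probes, and 1226 had an unadjusted p under 0.05. The numbers are not stated to pair the samples, and same-numbered samples deviated with a correlation of -0.13. Over 7 processing alternatives, 19 of 23 collagens kept their direction. Dropping the filter on dim probes, or requiring signal on all 4 arrays, could not change a direction, since the collagen values stayed the same. The mean of all probes could change only the 5 collagens with several measured probes. With the normexp background correction Col5a2 was 0.021, Col4a4 0.067 and Col4a5 0.037, with quantile normalization Col4a5 was 0.046, and with the median of each array it was 0.077. In the authors' log2 table, the median of all probes shifted to -0.17 and 68.6% of probes were lower (51.3% as reported). There 21 of 23 collagens were lower, Col18a1 was -0.052, Postn -0.076 and Itga1 -0.13. Its differences between arrays followed those of the scanner values apart from an offset per array, such as 0.32 between vehicle 2 and AP 1. The source of these offsets was not tested. Normexp moved 10 of 23 collagens by over 1.5 times, among them Col8a1 (-0.032), Col4a6 (-0.14), Col7a1 (-0.22) and Col11a2 (0.18), and the authors' table, which shifts all genes alike, moved 12. Leaving out 1 array moved between 12 and 19.

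The gap between fibrillar and type IV medians was between -0.20 and -0.26 under the other 8 settings of the processing or of the class lists, of which the median of each array, the authors' table, the filter for all 4 arrays and the mean of all probes could not change it, since they shifted the genes of an array alike or left the probes of these genes as they were. Under summaries chosen after seeing the data it was -0.13 (class means) and -0.021 (medians within each array). With each array left out it ranged from -0.35 to 0.11, the type IV median from -0.56 to 0.032, and the count of collagens with both AP arrays below from 9 to 17, which then compares 1 array with 2. For all named genes that share was between 30.2% and 37.0% (17.3% as reported). It was 73.9% of collagens without vehicle 1 and 39.1% without vehicle 2, beside 32.5% and 37.0% of all named genes. With each array left out, 13 of 23 collagens kept their direction. The others ranged from -0.67 to 0.056 (Col14a1), -0.23 to 0.040 (Col16a1), -0.048 to 0.27 (Col18a1), -0.41 to 0.94 (Col20a1), -0.57 to 0.21 (Col23a1), -0.65 to 0.36 (Col4a1), -0.56 to 0.23 (Col4a2), -0.43 to 0.42 (Col4a5), -0.45 to 0.12 (Col5a2) and -1.51 to 0.29 (Col7a1). Of the other genes, Fn1 ranged from -1.20 to 0.015, Itga1 from -0.25 to 0.32, Mmp14 from -0.14 to 0.57, Mmp2 from -0.087 to 0.47, Nid2 from -1.73 to 0.055, P4ha1 from -0.28 to 1.71, Postn from -0.20 to 0.37 and Ddr1 from -0.00014 to 0.61. A block for slide or for scan could not be fitted, as there was 1 of each. The normexp alternative used the median spot signal in place of the mean.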

Other observations

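Among collagens not measured in both arrays of a group, 3 were well above background on 1 array. Col15a1, a basement membrane collagen, and Col28a1 were so on vehicle 2, at -2.94 and -2.69, and Col6a6 on AP 2, at -3.25. Of 5 collagens with several measured probes, 1 (Col18a1) had probes that differed in sign. The second probe of Col16a1 gave -0.33 with both AP arrays below both vehicle arrays, where the groups overlapped on the brighter probe.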
